A study of Mus musculus with 6 samples.

Results

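Semaphorins, their plexin receptors and the neuropilin coreceptors were followed in RNAseq of GFP+ cells from mouse embryos labelled as controls or as deficient in the chromatin remodeling subunits BAF155 and BAF170. Members were the protein-coding genes of GENCODE M21 with a symbol made of Sema, a class number from 3 to 7 and a letter, of Plxna, Plxnb, Plxnc or Plxnd and a number, or Nrp1 and Nrp2. The table of 46983 genes holds 31 of them, which are 20 semaphorins, 9 plexins and 2 neuropilins. The cells were sorted from 6 embryos at E11.25, and 3 control libraries (Wnt1Cre/+, BAF155flox/+, BAF170flox/+ and Rosa26mTmG/+) stand beside 3 deficient libraries (Wnt1Cre/+, BAF155flox/flox, BAF170flox/flox and Rosa26mTmG/+). Both groups carry the Cre transgene and the reporter, and the controls are heterozygous for both floxed genes. Wnt1-driven Cre marks premigratory NCCs and is also active in the dorsal neural tube, so the GFP gate can hold cells of both.

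Semaphorins are guidance cues that steer migrating cells and growing axons, mostly by repulsion. Class 3 members are secreted, and most of them act through a neuropilin held in a complex with a class A plexin, whereas classes 4 to 7 are anchored to the membrane and bind plexins directly. Plexins signal through a cytoplasmic domain that inactivates small GTPases of the Ras family. In the embryo this system keeps the streams of cranial and trunk NCCs apart and draws plexin A2-bearing cardiac NCCs into the outflow tract, where semaphorin 3C is one of the cues.

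Levels are CPM, the counts of a gene scaled to normalized library sizes, replicates are given in the order 1 to 3, and errors of log2 fold changes are standard errors (SE). Calls use these library sizes, or the size factors of DESeq2, and all 6 libraries unless another fit is named. Positions are in GRCm38. Library totals ran from 8191219 counts in control replicate 2 to 19808620 counts in deficient replicate 3, and each deficient library was deeper than each control library. Groups are named by their labels. Of the floxed genes, Smarcc1 (BAF155) had 42.1, 55.0 and 35.1 CPM across control replicates against 29.4, 26.4 and 24.5 CPM across deficient replicates, a log2 fold change of deficient over control of −0.71 ± 0.156 (SE, edgeR adjusted p = 0.0676). Smarcc2 (BAF170) had 91.8, 89.9 and 92.9 CPM across control replicates against 85.9, 82.3 and 86.8 CPM across deficient replicates, and its log2 fold change of −0.11 ± 0.0577 (SE, edgeR adjusted p = 0.251) did not pass the threshold. The log2 fold change of Smarcc1 was −0.74 without control replicate 1 (edgeR adjusted p = 0.222), −0.70 without deficient replicate 2 (edgeR adjusted p = 0.132) and −0.65 without deficient replicate 3 (edgeR adjusted p = 0.225), where the adjusted p no longer passed. It fell short of the fold threshold at −0.53 without control replicate 2 and at −0.57 with correction for exon length. With libraries scaled to embryonic markers it was 0.37 (edgeR adjusted p = 0.315), −0.65 from the median of all genes. Counts per gene do not separate the floxed exons from the rest of a transcript.

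The sorted cells are labelled as NCCs, but markers of macrophages had far higher summed CPM than markers of NCCs in each of the 6 libraries, compared without division by length. The 12 macrophage markers, led by Ctss at a mean of 3833 CPM, summed to 13039, 12248 and 14209.6 CPM across control replicates against 14336, 14976 and 15645 CPM across deficient replicates, and none of them was called by edgeR, DESeq2 or limma-voom, with 10 higher at an unadjusted p under 0.05 in edgeR. The 11 neural crest markers, led by Ednrb at a mean of 23.3 CPM, summed to 93.8, 114 and 67.1 CPM across control replicates against 62.0, 48.3 and 43.8 CPM across deficient replicates. Ednrb itself had 28.4, 20.9 and 20.8 CPM across control replicates against 24.4, 22.7 and 22.7 CPM across deficient replicates, groups that overlap, and a log2 fold change of −0.00840 ± 0.122 (SE, edgeR adjusted p = 0.973). Of the 10 crest markers tested, 5 were called lower and the median log2 fold change was −1.34. Together the 67 markers of neural crest, crest mesenchyme, sensory and autonomic neurons, glial crest and neural tube summed to 520.4, 739 and 394 CPM across control replicates against 345, 264 and 258 CPM across deficient replicates. All 53 tested genes among them had a negative log2 fold change, that of Ednrb near 0, 20 were called lower, and the sum was highest in control replicate 2. Both the higher macrophage sums and the lower embryonic sums of the deficient libraries left no overlap between the groups (exact permutation test, two-sided, p = 0.1 for each, the smallest that 3 against 3 libraries allow). No listed gene was at 0 in all 6 libraries. In bulk samples, fewer embryonic cells among the sorted cells and less RNA per cell cannot be told apart, and the part of either in the values below was not tested.

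Of the embryonic lists, crest mesenchyme had a median log2 fold change of −0.99 (15 of 18 tested, 8 called lower), and sensory and autonomic neurons one of −1.15 (13 of 18 tested, 4 called lower). Neural tube markers had a median of −0.79 (12 of 14 tested, 3 called lower), and glial crest markers one of −0.98 (3 of 6 tested). Outside these lists the median was −0.24 (8 of 9 tested) for erythroid, 0.51 (3 of 6 tested) for neutrophil, 0.06 (4 of 7 tested) for endothelial and −0.05 (2 of 4 tested) for smooth muscle markers. The glial, erythroid, neutrophil, endothelial and smooth muscle lists were pooled because edgeR called none of their 20 tested genes, so that outcome was fixed by the choice. The macrophage list, also without a call, was left out of the pool. In edgeR 5 of the 20 were lower and 2 higher at an unadjusted p under 0.05, against 3813 of all 13961 genes in either direction. DESeq2 called 3 of the 20 and limma-voom 1. None of the 5 epithelial markers passed the filter on low counts, and they summed to 1.60, 2.94 and 1.64 CPM across control replicates against 0.862, 1.10 and 1.04 CPM across deficient replicates. Neutrophil sums, led by S100a8, were 19.78, 17.4 and 22.4 CPM across control replicates against 27.5, 23.9 and 26.3 CPM across deficient replicates. They were higher in each deficient library than in each control library, as for the macrophage markers (exact permutation test, two-sided, p = 0.1). Of the 3 tested neutrophil markers, S100a8 and S100a9 had log2 fold changes of 0.51 and 0.53, and Ngp had one of −0.27. Endothelial sums were 10.1, 10.3 and 10.4 CPM across control replicates against 10.3, 10.3 and 10.6 CPM across deficient replicates, led by Pecam1 at a mean of 5.59 CPM. Erythroid sums were 28.9, 67.3 and 22.1 CPM across control replicates against 22.8, 16.9 and 21.1 CPM across deficient replicates, highest in control replicate 2 and led by Hbb-y. The tested erythroid markers were split. Hbb-y, Hba-x and Hbb-bh1 had log2 fold changes of −2.07, −1.90 and −1.73 and Alas2 one of −0.49. Hba-a1, Hba-a2, Hbb-bt and Hbb-bs lay between 0.02 and 0.48.

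Of the 31 members, 26 passed the filter on low counts and were tested, and 7 of them fell in the deficient libraries. These are the secreted semaphorin gene Sema3f, the membrane semaphorin genes Sema5a, Sema6a, Sema6c and Sema6d, and the receptor genes Plxna2 and Plxna4. A call needed an edgeR quasi-likelihood p adjusted by Benjamini-Hochberg of 0.1 or less, a log2 fold change of 0.58 or more in either direction and 2 CPM or more on average. By this rule 681 of 13961 genes tested were called lower (4.88%), and 8 were called higher (0.0573%). No member was called higher in edgeR's quasi-likelihood test, DESeq2 or limma-voom. A higher estimate at an unadjusted p under 0.05 was seen for 2 members in edgeR, 3 in DESeq2 and 2 in limma-voom. A lower one at that p was seen for 9, 10 and 11 members. Of all genes, 3813 in edgeR, 3260 in DESeq2 and 3902 in limma-voom had such a p in either direction. With the adjusted p alone, 7.75% of all genes tested were lower and 4.18% higher, against 7 lower members and 1 higher member, Sema4d. The deficient libraries were all lower than the controls in 10 tested members, against 16.4% of all genes tested, and all higher in 4, against 15% of all genes. The median log2 fold change was −0.24 over the 26 tested members and −0.02 over all genes tested.

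Which members passed the adjusted p depended on single libraries. Without control replicate 1, edgeR called 0 of all genes lower, 2547 genes had an unadjusted p under 0.05, and the smallest edgeR adjusted p of a member was 0.214, while the log2 fold changes of the 7 genes lay between −2.02 (Sema5a) and −0.99 (Plxna2) and were further from 0 than with all libraries in 6 of them. Without deficient replicate 3, no member and 17 genes in all were called lower by edgeR. In that fit 9 members were lower and 1 higher at an unadjusted p under 0.05, against 2200 of all genes in either direction. The smallest edgeR adjusted p of a member was 0.111, and the 7 genes lay between −1.62 (Sema3f) and −0.87 (Plxna2). Without control replicate 2, 61 genes in all were called lower, and all 7 were closer to 0, between −1.39 (Sema6d) and −0.80 (Plxna2). In that fit the calls of Sema6a, Sema6c and Sema6d were kept and those of Plxna2, Plxna4, Sema3f and Sema5a were lost. Without deficient replicate 2, 219 genes in all were called lower. Plxna2 and the same 3 class 6 genes were among them, and Plxna4 at −1.64, Sema3f at −1.65 and Sema5a at −2.03 were not. Without deficient replicate 1 the log2 fold change of Plxna4 was −1.53 but its adjusted p did not pass (edgeR adjusted p = 0.143). Sema3a was called in that fit, with 1030 genes in all called lower. Without control replicate 3, by contrast, the 7 members and Sema3a and 1219 genes in all were called lower, with the 7 between −2.16 (Sema5a) and −1.10 (Plxna2) and their edgeR adjusted p from 0.00684 to 0.0195. With library totals in place of the normalized library sizes, the 7 calls were kept, Sema3a was called, and 691 genes in all were called lower. DESeq2 and limma-voom each called the same 7 members and Sema3a, and limma-voom also Plxnb1. Over all genes DESeq2 called 868 lower and limma-voom 829. When libraries were scaled so that the embryonic markers were level on average, the median over all genes moved to 1.01, 49 genes were called lower and 9958 higher, and of the members Sema5a was called lower and 15 were called higher. Measured from that median, the 7 genes lay between −1.75 (Sema5a) and −0.90 (Plxna2).

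**Figure D1:**
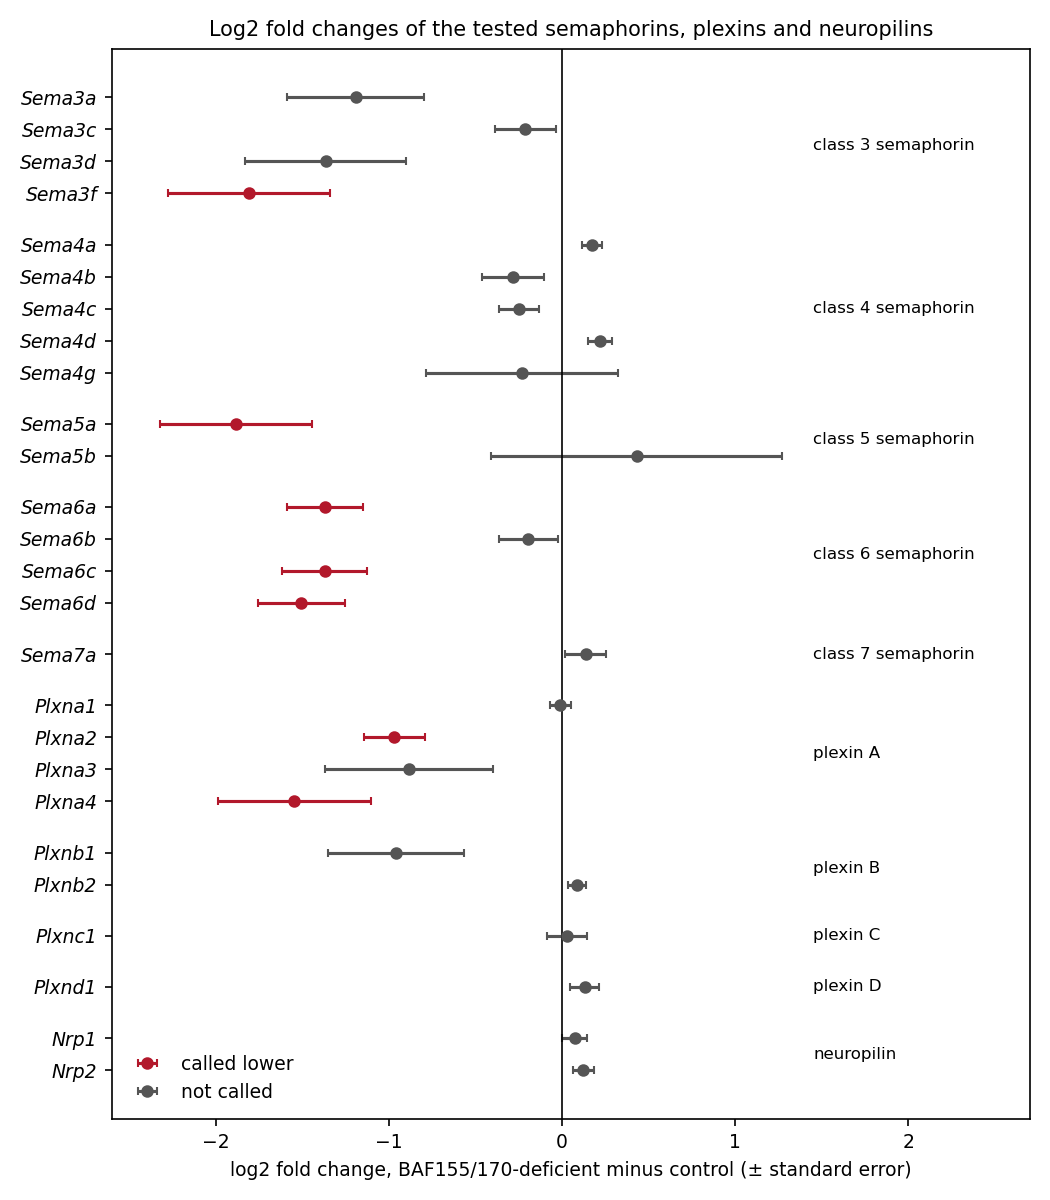
Log2 fold change of deficient over control (horizontal axis) for each of the 26 tested members, grouped by class, with bars of 1 standard error and called genes in red. The 7 called genes lie between −1.88 and −0.97, and Plxna2 is at 0.11 with scaling to the embryonic markers, −0.90 from the median of all genes.

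Among the secreted class 3 ligands, 4 of 7 genes were tested and 1 fell. Sema3f (ENSMUSG00000034684.12, chr9:107681500-107710475), a repellent ligand that acts mainly through neuropilin 2, had 4.999, 10.4 and 3.28 CPM across control replicates against 2.66, 1.34 and 1.33 CPM across deficient replicates. Control replicate 2 stood above the other controls, and each deficient value lay below each control value. The log2 fold change was −1.81 ± 0.466 (SE, edgeR adjusted p = 0.0780), and without control replicate 2 it was −1.24. Sema3c (ENSMUSG00000028780.13, chr5:17574281-17730268), the attractant of cardiac NCCs, had the highest class 3 level per kb of exon over all libraries (0.953 CPM per kb), whereas in the controls Sema3f was higher, at 1.20 against 1.02 CPM per kb. It measured 6.59, 7.63 and 7.71 CPM across control replicates against 5.72, 6.72 and 6.46 CPM across deficient replicates, groups that overlap, with a log2 fold change of −0.21 ± 0.176 (SE, edgeR adjusted p = 0.465). Sema3a, the classical repellent that binds neuropilin 1, and Sema3d had log2 fold changes of −1.19 ± 0.397 (SE, edgeR adjusted p = 0.106) and −1.37 ± 0.467 (SE, edgeR adjusted p = 0.103), with groups that do not overlap. Sema3a missed the adjusted p there, and it was called lower in 8 of 15 other fits, DESeq2 (adjusted p = 0.0342) and limma-voom (adjusted p = 0.0829) among them. Sema3d, at a mean of 1.32 CPM, was under the level that a call needed. Sema3b, Sema3e and Sema3g had between 5 and 15 counts in a library and were not tested.

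Class 6 semaphorins, membrane proteins that bind class A plexins, held 3 of the 7 called genes among 4 tested. Sema6a (ENSMUSG00000019647.16, chr18:47235598-47368870), a ligand of plexins A2 and A4, had 13.5, 18.5 and 10.5 CPM across control replicates against 6.58, 4.95 and 4.84 CPM across deficient replicates. The lowest control value exceeded the highest deficient value, and the log2 fold change was −1.37 ± 0.220 (SE, edgeR adjusted p = 0.0393). Sema6c (ENSMUSG00000038777.19, chr3:95160457-95174024) had 8.83, 15.1 and 9.93 CPM across control replicates against 4.23, 5.38 and 3.42 CPM across deficient replicates, again with no overlap and with control replicate 2 the highest. Its log2 fold change was −1.37 ± 0.244 (SE, edgeR adjusted p = 0.0455). Sema6d (ENSMUSG00000027200.17, chr2:124089969-124667770), a ligand of plexin A1 in heart development, had 7.66, 8.29 and 5.50 CPM across control replicates against 2.43, 2.99 and 2.09 CPM across deficient replicates. The control values were closer together than those of Sema5a or Sema3f, and the log2 fold change of −1.50 ± 0.250 (SE, edgeR adjusted p = 0.0431) was −1.39 without control replicate 2. In that fit Sema6a was at −1.14 and Sema6c at −1.12, and the 3 edgeR adjusted p values lay between 0.0910 and 0.0967. Sema6b (ENSMUSG00000001227.11, chr17:56123085-56140343) had the highest class 6 level, 1.85 CPM per kb, and measured 6.70, 8.56 and 8.21 CPM across control replicates against 6.89, 6.84 and 6.74 CPM across deficient replicates. Its groups overlap, and its log2 fold change was −0.20 ± 0.171 (SE, edgeR adjusted p = 0.491). With scaling to the embryonic markers Sema6a, Sema6c and Sema6d were at −0.28, −0.29 and −0.42 between −1.43 and −1.29 from the median of all genes, and none of them passed (edgeR adjusted p from 0.274 to 0.436).

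Class 5 semaphorins carry thrombospondin repeats beside the sema domain, and both were tested. Sema5a (ENSMUSG00000022231.9, chr15:32244810-32696341) had 7.87, 16.1 and 5.99 CPM across control replicates against 3.37, 3.18 and 1.57 CPM across deficient replicates, with control replicate 2 the highest and deficient replicate 3 the lowest. Its log2 fold change of −1.88 ± 0.436 (SE, edgeR adjusted p = 0.0759) was the lowest of the tested members, and it was −1.37 without control replicate 2 (edgeR adjusted p = 0.137). Sema5b (ENSMUSG00000052133.16, chr16:35541145-35664732), at 1.77 CPM per kb the higher of the pair, had 12.02, 9.10 and 10.8 CPM across control replicates against 8.22, 30.8 and 4.23 CPM across deficient replicates. Deficient replicate 2 stood far above all other libraries with 504 counts, and the log2 fold change of 0.43 ± 0.841 (SE, edgeR adjusted p = 0.790) became −0.80 without it.

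Class 4 and class 7 semaphorins, which also act on immune cells, included the ligand genes with the highest CPM per kb, and edgeR, DESeq2 and limma-voom called none of the 6 tested. Of these, 2 had an unadjusted p under 0.05 in edgeR, Sema4a and Sema4d, against 3813 of the 13961 genes tested. Sema4d (ENSMUSG00000021451.15, chr13:51685529-51793747), the ligand of plexin B1, had 244, 227 and 265 CPM across control replicates against 272, 286 and 299 CPM across deficient replicates, which is 34.6 CPM per kb. Deficient values lay above all control values, and the log2 fold change of 0.22 ± 0.0686 (SE, edgeR adjusted p = 0.0921) passed the adjusted p but not the fold threshold. It became 1.23 with scaling to the embryonic markers, against the shift of 1.01 over all genes. Sema4a had a log2 fold change of 0.17 ± 0.0582 (SE, edgeR adjusted p = 0.1001), with groups that do not overlap. Sema4b, Sema4c and Sema4g lay between −0.28 and −0.23, and Sema4f was not tested, with between 3 and 13 counts in a library. A gene on the opposite strand, D430040D24Rik, shares 334 of the 4593 exon bases of Sema4c. Sema4g changed sign, to 0.10 without control replicate 2 and 0.19 without deficient replicate 3. Sema7a (ENSMUSG00000038264.7, chr9:57940112-57962865), a GPI-anchored semaphorin that binds plexin C1 and integrins, had 15.6, 19.7 and 21.4 CPM across control replicates against 20.3, 20.5 and 21.6 CPM across deficient replicates. Its groups overlap, and its log2 fold change was 0.14 ± 0.120 (SE, edgeR adjusted p = 0.497). That value was 0.0172 without control replicate 1 and 0.25 without control replicate 3.

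Among the receptors, 8 of 9 plexin genes were tested and 2 fell, both of class A. Plxna2 (ENSMUSG00000026640.12, chr1:194618218-194816869), whose product marks cardiac NCCs, had 14.3, 18.2 and 12.1 CPM across control replicates against 7.60, 8.43 and 6.60 CPM across deficient replicates. Each deficient value was below each control value, and the log2 fold change was −0.97 ± 0.176 (SE, edgeR adjusted p = 0.0455). Leaving out a library in turn placed it between −1.10 and −0.80, and correction for exon length placed it at −0.65 (edgeR adjusted p = 0.0480). It was 0.11 with scaling to the embryonic markers, −0.90 from the median of all genes (edgeR adjusted p = 0.759), and over its 15 other fits the edgeR, DESeq2 or limma adjusted p lay between 8.34e-06 and 0.759.

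Plxna4 (ENSMUSG00000029765.12, chr6:32144268-32588192), a receptor of class 6 semaphorins and, with neuropilin 1, of semaphorin 3A, had 5.64, 15.5 and 4.92 CPM across control replicates against 2.82, 3.30 and 2.61 CPM across deficient replicates. Control replicate 2 stood far above the other controls, and the groups do not overlap. The log2 fold change was −1.55 ± 0.441 (SE, edgeR adjusted p = 0.0924), and −0.85 without that library (edgeR adjusted p = 0.206). An antisense gene, Plxna4os3, shares 110 exon bases with it, and the strand setting of the counting is not given in the sources used here. Plxna1 (ENSMUSG00000030084.11, chr6:89316314-89362620), which pairs with both neuropilins, was the highest class A plexin at 23.2 CPM per kb. It had 213, 209 and 209.6 CPM across control replicates against 195, 215 and 217 CPM across deficient replicates, groups that overlap, and a log2 fold change of −0.01 ± 0.0596 (SE, edgeR adjusted p = 0.930), whose sign changed under 7 of 15 other fits. The antisense gene Gm26811 shares 970 of its 9054 exon bases. Plxna3 had a log2 fold change of −0.88 ± 0.486 (SE, edgeR adjusted p = 0.309), which was −1.30 without deficient replicate 2, −0.60 without control replicate 2 and −0.53 without deficient replicate 3.

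The other plexins were not called. Plxnb2 (ENSMUSG00000036606.16, chr15:89155549-89180788), a receptor of class 4 semaphorins, had 223, 222 and 230.4 CPM across control replicates against 232, 239 and 246 CPM across deficient replicates, which is 30.05 CPM per kb. Deficient values lay above the controls by a small margin, with a log2 fold change of 0.09 ± 0.0544 (SE, edgeR adjusted p = 0.329). Plxnb1, the receptor of semaphorin 4D, had a log2 fold change of −0.96 ± 0.391 (SE, edgeR adjusted p = 0.202) in groups that do not overlap, and limma-voom called it lower. The antisense gene Gm7628 shares 257 of the 9592 exon bases of Plxnb1. Plxnb3 had between 3 and 12 counts in a library and was not tested. Plxnc1 (ENSMUSG00000074785.4, chr10:94790866-94944835), the receptor of semaphorin 7A, had 16.1, 14.0 and 15.1 CPM across control replicates against 15.7, 14.2 and 16.2 CPM across deficient replicates and a log2 fold change of 0.03 ± 0.115 (SE, edgeR adjusted p = 0.895). Plxnd1 (ENSMUSG00000030123.15, chr6:115954811-115995005), a vascular receptor that binds semaphorin 3E without a neuropilin, had 41.9, 37.5 and 40.4 CPM across control replicates against 39.6, 45.2 and 46.3 CPM across deficient replicates and a log2 fold change of 0.13 ± 0.0830 (SE, edgeR adjusted p = 0.332). The groups of both genes overlap.

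Both neuropilins, the ligand-binding coreceptors of class 3 semaphorins and of VEGF, were abundant and neither was called. Nrp2 (ENSMUSG00000025969.15, chr1:62703285-62818695) had the highest level of all members, 43.4 CPM per kb. It measured 479.6, 477 and 521 CPM across control replicates against 522, 535 and 550.4 CPM across deficient replicates, with deficient values just above the controls and a log2 fold change of 0.12 ± 0.0606 (SE, edgeR adjusted p = 0.218). Nrp1 (ENSMUSG00000025810.8, chr8:128358604-128503363), at 4.06 CPM per kb, had 40.3, 39.2 and 36.9 CPM across control replicates against 39.5, 41.3 and 41.4 CPM across deficient replicates. Its groups overlap, and its log2 fold change was 0.07 ± 0.0721 (SE, edgeR adjusted p = 0.553). With scaling to the embryonic markers the neuropilins were at 1.14 and 1.11, close to the shift over all genes.

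**Figure D2:**
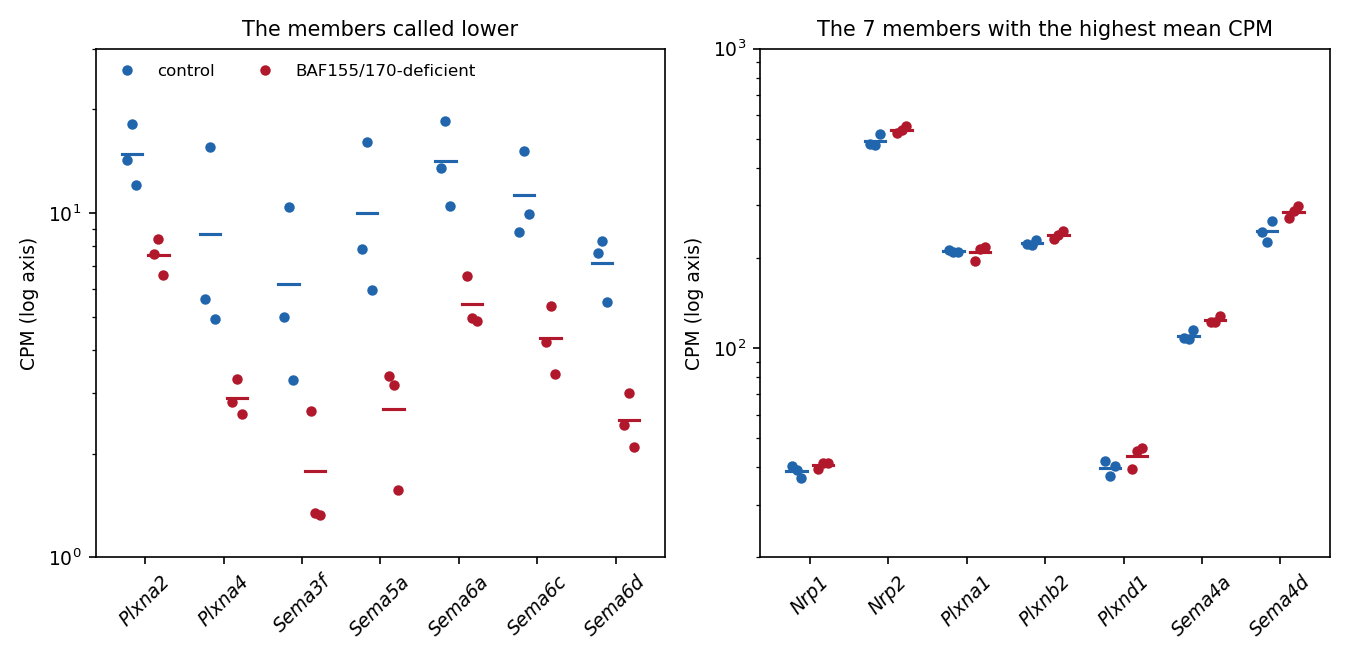
CPM on a log axis for the 7 called members (left) and the 7 members with the highest mean CPM (right). Points are libraries, blue for control and red for BAF155/170-deficient, and lines are group means of 3 libraries. Called genes lie between 1.33 CPM (Sema3f) and 18.5 CPM (Sema6a), and the abundant ones between 36.9 CPM (Nrp1) and 550.4 CPM (Nrp2).

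All 7 called genes had a mean under 11.3 CPM, the median over all genes tested, a division chosen after the values were seen. Below it were 13 tested members, whose median log2 fold change was −1.37, with 9 genes at an unadjusted p under 0.05 in edgeR. At or above it were 13 members with a median of 0.09, no edgeR call and 2 genes at that p. Of all genes, 1512 of 6967 below this level and 2301 of 6994 at or above it had such a p. Over all genes tested the same division gave 7.75% called lower with a median of −0.22 below, and 2.02% with a median of 0.08 at or above it. Counts behind the called genes were 22 to 147 in a library. All 7 were highest in control replicate 2, where the embryonic marker sum was also highest, and lowest in deficient replicate 3, where that sum was lowest, and the part of the marker levels in these calls was not tested.

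Of 47 listed partner genes of the pathway, 45 were tested, 8 fell and none was called higher in edgeR, against 4.88% and 0.0573% of all genes, and 2 with a higher estimate passed the adjusted p alone. At an unadjusted p under 0.05 in edgeR, 15 partners were lower and 11 higher, against 3813 of all genes in either direction. Without control replicate 1 edgeR called 0 partners lower, with 12 lower and 5 higher at that p, against 2547 of all genes. The 8 genes lay between −2.08 (Dpysl4) and −1.07 (Nrcam) in that fit. Without deficient replicate 3 edgeR also called 0, with 9 lower and 2 higher at that p, against 2200 of all genes. There the 8 genes lay between −2.01 (Dpysl4) and −0.84 (Nrcam). Without control replicate 2 the only call was Farp1 and the 8 lay between −1.58 (Dpysl4) and −0.64 (Nrcam), and without deficient replicate 2 the calls were L1cam and Mical3. Without control replicate 3 edgeR called 12 lower, the 8 among them. DESeq2 called 11 and limma-voom 10 lower, against 868 and 829 of all genes, and limma-voom did not call Chl1. Scaling to the embryonic markers left Dpysl4 and Farp1 called lower and 30 partners called higher. Partners in the membrane (11 of 13 tested, median log2 fold change 0.15) held 4 of the calls. The 3 listed adhesion molecules of the L1 family, which join neuropilin complexes, were among them. L1cam had 9.57, 13.6 and 5.42 CPM across control replicates against 3.45, 4.89 and 3.47 CPM across deficient replicates, a log2 fold change of −1.25 ± 0.318 (SE, edgeR adjusted p = 0.0765). Nrcam had 9.89, 16.1 and 6.73 CPM across control replicates against 6.74, 5.25 and 4.08 CPM across deficient replicates, a log2 fold change of −1.01 ± 0.320 (SE, edgeR adjusted p = 0.0996), and it was not called when genes were filtered at a mean of 1 CPM (edgeR adjusted p = 0.102). Chl1 had 3.40, 6.42 and 1.97 CPM across control replicates against 1.25, 1.34 and 1.28 CPM across deficient replicates, and its log2 fold change of −1.56 ± 0.410 (SE, edgeR adjusted p = 0.0763) was the lowest in this list. Each of these adhesion genes was highest in control replicate 2, and the groups of Nrcam overlap. Nrcam was at 0.11 with scaling to the embryonic markers, −0.90 from the median of all genes. Erbb2, a receptor tyrosine kinase that associates with plexin B1, had 7.13, 8.29 and 4.27 CPM across control replicates against 3.92, 2.87 and 1.66 CPM across deficient replicates, a log2 fold change of −1.23 ± 0.345 (SE, edgeR adjusted p = 0.0826). Met, another kinase of plexin B complexes, had the highest estimate in the list, 0.43 ± 0.126 (SE, edgeR adjusted p = 0.0848), from 9.47, 10.3 and 10.7 CPM across control replicates against 13.2, 13.7 and 14.1 CPM across deficient replicates, and fell short of the fold threshold. Mst1r and Timd2 were not tested.

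Cytosolic partners (30 of 30 tested, median log2 fold change −0.15) held the other 4 calls. Dpysl4, of the collapsin response mediator family that relays semaphorin 3A signals, had 19.4, 32.6 and 11.0 CPM across control replicates against 6.66, 3.73 and 4.89 CPM across deficient replicates. Its log2 fold change of −2.03 ± 0.454 (SE, edgeR adjusted p = 0.0828) was the lowest among the partners. Dpysl5, of the same family, had 16.9, 24.9 and 11.2 CPM across control replicates against 8.46, 6.42 and 5.17 CPM across deficient replicates and a log2 fold change of −1.40 ± 0.312 (SE, edgeR adjusted p = 0.0739). In both genes the controls spread widely and lay above all deficient values. Farp1, a FERM domain exchange factor linked to class A plexins, had 13.5, 21.5 and 9.93 CPM across control replicates against 5.95, 4.34 and 3.32 CPM across deficient replicates and a log2 fold change of −1.73 ± 0.320 (SE, edgeR adjusted p = 0.0534). Mical3, a monooxygenase related to Mical1, which disassembles actin downstream of plexins, had 12.1, 13.9 and 10.6 CPM across control replicates against 6.89, 5.93 and 3.99 CPM across deficient replicates. Its controls were close together, and its log2 fold change was −1.13 ± 0.212 (SE, edgeR adjusted p = 0.0483). Gipc1, an adaptor that binds the tail of neuropilin 1, had the highest estimate among cytosolic partners, 0.27 ± 0.0733 (SE, edgeR adjusted p = 0.0771), from 38.6, 39.7 and 37.3 CPM across control replicates against 44.5, 49.4 and 45.8 CPM across deficient replicates, under the fold threshold. Of the 4 VEGF ligands of neuropilins, all were tested, and edgeR, DESeq2 and limma-voom called none with the normalized library sizes. Of the 4, 0 had an unadjusted p under 0.05 in edgeR, against 3813 of the 13961 genes tested. With scaling to the embryonic markers Vegfa, Vegfb and Pgf were called higher, at 1.48, 1.20 and 1.19 against the shift of 1.01 over all genes. Vegfa had 32.5, 29.0 and 24.5 CPM across control replicates against 29.1, 60.1 and 25.2 CPM across deficient replicates, with deficient replicate 2 the highest as for Sema5b, and the highest estimate, 0.41 ± 0.404 (SE, edgeR adjusted p = 0.569), which was −0.08 without that library. Vegfc had the lowest, −0.56 ± 0.342 (SE, edgeR adjusted p = 0.309), from 4.36, 3.08 and 1.89 CPM across control replicates against 1.64, 2.20 and 2.33 CPM across deficient replicates. It was −0.23 without control replicate 1 and −0.85 without control replicate 3, where edgeR called it lower (adjusted p = 0.0973).

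Promoter windows of 250 bases before a RefSeq transcript start (GRCm38.p6) were matched for 26 of the 31 members, in 37 windows. The members without an entry are Plxna1, Plxna4, Sema3b, Sema3f and Sema6a. Windows were searched on both strands for GGGCGG, the GC box read by Sp factors, and for GGAATG, the core read by Tead factors, and the 2 motifs do not overlap each other in the windows printed here. GGGCGG was found in 27 member windows (73.0%) and in 32.7% of all 32851 windows, and in 4 of the 6 windows of the 4 called members with an entry. GGAATG was found in 3 member windows (8.11%), those of Plxnb1, Plxnd1 and a Sema4a start, in none of the called members, and in 12.6% of all windows. CpG pairs numbered 13 in the median member window and 6 in the median of all. Windows of 2 genes that fell together, Sema6c and Sema6d, and of Plxnd1, which was not called, are printed 5′ to 3′ on the strand of the gene with both motifs in capitals, either strand. They lie at chr3:95160170-95160419 on the plus strand (15 CpG pairs), at chr2:124089719-124089968 on the plus strand (9 CpG pairs) and at chr6:115995006-115995255 on the minus strand (16 CpG pairs). No exon of GENCODE M21 overlaps them.
Sema6c: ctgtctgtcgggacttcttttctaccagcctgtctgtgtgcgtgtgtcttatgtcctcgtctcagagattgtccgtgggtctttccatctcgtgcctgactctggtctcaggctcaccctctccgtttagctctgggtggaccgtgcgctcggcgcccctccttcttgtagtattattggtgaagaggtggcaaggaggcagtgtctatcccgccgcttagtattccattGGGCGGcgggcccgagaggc
Sema6d: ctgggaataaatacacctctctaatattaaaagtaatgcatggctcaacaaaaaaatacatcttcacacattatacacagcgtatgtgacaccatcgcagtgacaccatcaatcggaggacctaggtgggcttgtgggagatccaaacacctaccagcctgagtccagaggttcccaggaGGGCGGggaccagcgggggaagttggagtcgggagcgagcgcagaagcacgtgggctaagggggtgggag
Plxnd1: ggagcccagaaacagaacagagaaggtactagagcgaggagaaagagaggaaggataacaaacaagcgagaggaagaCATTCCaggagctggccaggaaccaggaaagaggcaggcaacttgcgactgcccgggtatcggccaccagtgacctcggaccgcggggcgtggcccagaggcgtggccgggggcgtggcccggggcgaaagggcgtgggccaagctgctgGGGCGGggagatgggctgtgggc
The printed windows of Sema6c and Sema6d each hold 1 GGGCGG and no GGAATG, and Plxnd1 holds 1 of each, the latter as CATTCC. Both genes have another start, with windows at chr3:95164089-95164338 and chr2:124653331-124653580 that hold neither motif. A match describes letters in the window and is not a measured site.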

How the data were processed

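RNAseq of GFP+ cells from 3 control and 3 BAF155/170-deficient embryos was compared as labelled. The authors trimmed reads of strand-specific poly(A) libraries, used STAR to align them to GRCm38 and featureCounts to count them per gene, and the submitters' notes name FastQC 0.11.7 and cutadapt 1.18. The deposited values are raw counts per gene, without normalization, and 8191219 to 19808620 counts per library set the precision of low genes. The annotation release and strand setting are not given in the sources used here. Of 46983 identifiers, 46488 have a name in GENCODE M21.

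The fits used edgeR 4.0.16 (R 4.3.3). Genes that passed filterByExpr at a minimum count of 10 and a minimum total of 15 were normalized by TMM and fitted over the whole table with the robust quasi-likelihood test, with Benjamini-Hochberg adjustment over all 13961 genes tested. The log2 scale had a prior count of 2, and standard errors come from the F statistic. Call thresholds follow the study's methods, which used limma. The common biological coefficient of variation was 12.8%. Levels per kb are normalized CPM divided by the union of exons. DESeq2 1.42.0 and voom of limma 3.58.1 were alternatives, beside library totals, scaling to 40 embryonic markers, other filters and thresholds, exon length correction (lowess span 0.3), a replicate block and each library left out. Summaries used pandas 2.3.3, scipy 1.17.1 and numpy 2.4.6, and figures matplotlib 3.10.9, in Python 3.11.15. The method was tested on simulated counts.

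Given in each library are called members, Plxna2, both neuropilins, the member of each class with the highest CPM per kb, and of each partner list the called genes and the extreme estimates. The members and lists were chosen with earlier results of these data known. Promoter sequences are from RefSeq (GRCm38.p6).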

Additional observations from a re-analysis of the deposited data

How the results depend on the processing

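Among the member log2 fold changes under alternatives, 319 kept their direction and their side of the call, 22 passed the thresholds newly, 27 no longer passed them and 22 changed sign, of which 6 were newly called and 1 lost its call, so that 28 calls were gained and 28 lost. Causes were not tested. DESeq2 called 15 genes higher in place of 8, no filter on low counts 33, and the exon length correction with the replicate block 24. Scaling to the embryonic markers called 1 member lower and 15 higher, 49 genes lower and 9958 higher, and 2 partner genes lower and 30 higher, and the member median was 0.81. It shifts the whole table, with the median of all genes at 1.01, and so put above 0 Sema4c at 0.79, Plxna2 at 0.11, Sema3c at 0.82, Plxna1 at 1.02, Sema4b at 0.75, Plxnb1 at 0.12, Sema6b at 0.84, Sema4g at 0.89, Plxna3 at 0.23, Vegfc at 0.54, Smarcc1 at 0.37, Smarcc2 at 0.92 and Nrcam at 0.11. Measured from that median Plxna1 was at 0.0109 and the others were below 0, from −0.90 (Nrcam, Plxna2) to −0.0964 (Smarcc2). With the adjusted p alone 1082 genes were lower and 583 higher, 1 member higher and 2 partner genes higher. With the threshold on the adjusted p lowered to 0.05, edgeR called 4 members lower, 94 genes lower, 0 higher and 1 partner gene lower.

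Plxna1, near 0, was 0.00767 in DESeq2, 0.0517 with library totals, 0.0393 without a filter, 0.16 with the exon length correction and 0.16 with that and the replicate block. Sema5b was −0.16 in limma-voom. Leaving out a library in turn gave 0 to 8 members lower, 0 to 1219 genes lower, 0 to 45 genes higher, 0 to 12 partner genes lower and a member median of −0.51 to −0.21. Over these fits Plxnc1 ranged from −0.0139 to 0.0872, Sema4g from −0.74 to 0.19, Plxna1 from −0.0400 to 0.0352, Sema5b from −0.80 to 0.89 and Vegfa from −0.0779 to 0.65. The log2 ratio of the marker sums, tried after the values were seen, was −1.12 to −0.66 for the embryonic lists and 0.14 to 0.25 for macrophages over the 6 fits. Without division by length the ranks of Sema3c, Sema5b, Sema6b, Sema7a, Plxnc1 and Plxnd1 among the members moved to 19, 13, 18, 10, 11 and 6.

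Replicate numbers were checked for pairing. Deviations of libraries with the same number correlated at 0.0284, −0.0336 and 0.293, so not every library deviated with its own number, and the main fit used no pairs. Deviations were taken from the means of only 3 libraries per group, so the check cannot exclude that some libraries were paired. The replicate numbers are those of the sample titles. The column names number the deficient libraries from 2 to 4, and by those the correlations were 0.261 (control 2 with deficient replicate 1) and 0.000418 (control 3 with deficient replicate 2), and no block was fitted on them. With the replicate block alone 1143 genes were called lower, 21 higher and 10 members lower, with Sema3a, Plxnb1 and Plxna3 (−0.95) added. Sema5b was −0.00770 in that fit. With the block and the exon length correction Smarcc1 was −0.56, Sema5b was 0.11 and Dpysl4 lost its call (−1.85, edgeR adjusted p = 0.116).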
